A study of Homo sapiens with 8 samples.

Results

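The regions described here lie at 10 genes through which red cell precursors take up, store and release iron: TFRC, TFR2, STEAP3, SLC11A2, SLC25A37, FTH1, FTL, NCOA4, SLC40A1 and IREB2. A region was included when the summit of one of its peaks fell in the body of one of these genes or within 30 kb of an annotated transcription start of that gene. This gave 53 of the 43569 accessible regions formed by merging 4 peak lists. Of the 53, 17 had their summit within 1 kb of a start of the listed gene itself, 13 within 1 kb of the start of another gene, and 23 were distal, that is, not within 1 kb of any start.

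Accessibility was measured by ATAC-seq, in which the transposase Tn5 inserts adapters into open chromatin. HUDEP-2 cells were used. This established line of human erythroid progenitors was derived from umbilical cord blood and is normally expanded with SCF, EPO, dexamethasone and doxycycline. The 8 samples of the series form 4 groups of 2, with a control guide RNA (sgControl, a scramble sequence) or a guide against an element upstream of EGR1 (sgEGR1), and with PBS or stem cell factor (SCF). The paper describes lentiviral transduction with these guides for CRISPR interference, in which dCas9-KRAB was directed to the EGR1 element. The lists of the 4 sgControl libraries were used, 2 with PBS and 2 with SCF at 50 ng/ml for 1 h, all after 5 h in medium without growth factors and all from about 50000 cells. The 4 sgEGR1 samples were not analysed here. The methods call the libraries biological duplicates, and all come from a single cell line, so the spread between them is that between cultures of one line. The comparison asks whether activation of the Kit receptor by SCF changes accessibility at these genes within 1 h.

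Erythroblasts take up more iron than any other cell type, almost all of it for heme. Iron bound to transferrin enters through the transferrin receptor TFRC, is reduced in the endosome by STEAP3, leaves it through SLC11A2 (also called DMT1) and enters mitochondria through SLC25A37 (mitoferrin 1). TFR2 binds transferrin with lower affinity and associates with the erythropoietin receptor. Excess iron is stored in ferritin, made of the heavy chain FTH1 and the light chain FTL, and NCOA4 carries ferritin to lysosomes for release. SLC40A1 (ferroportin) is the exporter of cellular iron, and IREB2 (IRP2) is an RNA-binding protein that controls the mRNAs of TFRC, the ferritins and SLC40A1 according to iron supply.

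The lists held between 29269 and 33616 peaks. The genome-wide background of a library was taken as the lowest number of fragments expected from the surroundings of any of its peaks. This measure of relative depth was 1.43 times that of PBS replicate 1 in PBS replicate 2. It was 0.902 times in SCF replicate 1 and 0.846 times in SCF replicate 2. By this measure both SCF libraries were shallower than both PBS libraries. Of 9 erythroid marker genes, 8 had a start region in all 4 lists, and ALAS2 in 1 list. Of the markers of other cell types, CD14, SPI1, ITGA2B, COL1A1 and EPCAM also had one in all 4 lists, while CD3E, PF4, ALB and TF had none, so an open start does not by itself identify the cell type.

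Reference sequences around the summits that the results turn on are given first, from the GRCh37 assembly (hg19). The first 4 are the sites with the 4 greatest rank differences between treatments whose PBS and SCF ranks did not overlap. The others are sites of TFRC, the ferritin genes and NCOA4 that stand out by level or by the words they hold. Capitals mark matches, on either strand, to any of 7 short words: AGATAA or TGATAA for GATA factors, TGANTCA for AP-1, TGACNNNGC for the antioxidant response element, GCGTGGG for EGR factors, CACGTG for the E-box, CCGGAAG for ETS factors and CCACACCC for KLF factors. A sequence without capitals holds none of them.
SLC40A1 upstream summit (chr2:190446868-190447068, plus strand): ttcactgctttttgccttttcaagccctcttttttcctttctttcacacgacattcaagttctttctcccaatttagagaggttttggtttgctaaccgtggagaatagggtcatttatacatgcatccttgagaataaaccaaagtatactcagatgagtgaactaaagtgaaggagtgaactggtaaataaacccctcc
FTH1 downstream site (chr11:61715121-61715321, plus strand): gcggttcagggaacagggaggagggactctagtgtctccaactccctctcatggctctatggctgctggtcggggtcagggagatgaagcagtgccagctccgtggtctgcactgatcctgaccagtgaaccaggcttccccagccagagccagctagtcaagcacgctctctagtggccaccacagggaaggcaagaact
SLC11A2 intronic site (chr12:51411308-51411508, plus strand): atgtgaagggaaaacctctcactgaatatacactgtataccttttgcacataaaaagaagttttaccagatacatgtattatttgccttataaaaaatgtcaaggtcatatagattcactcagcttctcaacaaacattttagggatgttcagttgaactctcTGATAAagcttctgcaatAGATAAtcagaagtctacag
FTL downstream site (chr19:49486989-49487189, plus strand): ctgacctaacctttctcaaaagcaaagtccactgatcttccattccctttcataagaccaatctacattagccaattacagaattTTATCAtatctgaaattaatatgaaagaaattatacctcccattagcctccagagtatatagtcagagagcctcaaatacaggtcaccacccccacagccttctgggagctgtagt
TFRC far intronic site (chr3:195749234-195749434, plus strand): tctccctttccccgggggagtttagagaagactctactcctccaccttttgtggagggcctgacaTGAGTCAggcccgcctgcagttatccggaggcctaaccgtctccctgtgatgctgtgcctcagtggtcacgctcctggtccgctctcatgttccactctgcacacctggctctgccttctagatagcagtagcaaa
TFRC upstream site (chr3:195835175-195835375, plus strand): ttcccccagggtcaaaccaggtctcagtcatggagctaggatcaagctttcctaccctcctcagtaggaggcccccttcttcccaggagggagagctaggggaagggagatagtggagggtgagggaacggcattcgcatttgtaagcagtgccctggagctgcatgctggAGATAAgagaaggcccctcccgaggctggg
FTH1 upstream site (chr11:61739286-61739486, plus strand): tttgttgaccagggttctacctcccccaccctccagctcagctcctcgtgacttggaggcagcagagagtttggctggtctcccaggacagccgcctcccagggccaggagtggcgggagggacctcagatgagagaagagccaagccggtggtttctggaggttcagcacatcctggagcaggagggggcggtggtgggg
NCOA4 downstream site (chr10:51594197-51594397, plus strand): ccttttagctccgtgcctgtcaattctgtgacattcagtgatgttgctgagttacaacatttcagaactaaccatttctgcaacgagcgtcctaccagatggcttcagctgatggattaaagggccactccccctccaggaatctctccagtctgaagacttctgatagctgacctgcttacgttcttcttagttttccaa
FTL start (chr19:49468456-49468565, plus strand): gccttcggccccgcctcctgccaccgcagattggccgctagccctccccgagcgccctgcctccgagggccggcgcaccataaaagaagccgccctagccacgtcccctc

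Peaks were ranked by fold enrichment within their own list on a percentile scale that ends at 100 for the strongest, and a region took, in each library, the rank of its strongest peak. Of the 53 regions, 33 were called in all 4 lists, against 51.3% of all regions. By class these were 13 of 17 at the genes' own starts and 9 of 13 at the starts of other genes, against 74.8% of all promoter regions, and 11 of 23 distal regions, against 34.9% of all distal regions. No region was called in both SCF lists and in no PBS list (0 of 53, against 1.65% of all regions), and none in both PBS lists and in no SCF list (0 of 53, against 2.37%). The other 20 regions were called in 1 list (12, where 26.5% of all regions were), 2 lists (5) or 3 lists (3). The 12 single calls came from PBS replicate 2 (4), SCF replicate 1 (2) and SCF replicate 2 (6). Over all regions, PBS replicate 1 had 2059 single calls, PBS replicate 2 had 3764, SCF replicate 1 had 1812 and SCF replicate 2 had 3908. All 5 pairs joined 1 PBS and 1 SCF library.

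Among the 33 regions called in all 4 lists, the median difference between the mean SCF rank and the mean PBS rank was -0.123 percentile points at the genes' own starts, -1.05 at the starts of other genes and 0.0355 at distal sites. Over all regions it was -0.755 for promoters and 0.0959 for distal sites. Both SCF ranks lay above both PBS ranks in 7 of the 33 regions, where 16.0% of all regions did so, and below them in 8, where 19.3% did. In the limma fit to all 22355 regions called in 4 lists, 0 regions had a Benjamini-Hochberg adjusted p under 0.05 (0% of all). The smallest adjusted p was 0.746. The paper compared SCF with PBS by another test, MAnorm, and reported both sites that gained and sites that lost accessibility. MAnorm needs reads, which peak lists do not hold, so it could not be repeated here. Ranks within lists are an unlike measure. At an unadjusted p under 0.05 limma called 3 of the 33, against 6.65% of all regions: the SLC40A1 start and a site downstream of FTH1, both higher with SCF, and a far intronic site of TFRC, lower with SCF. With the replicate number added to the limma fit as a block, their unadjusted p values were 0.0381, 0.0538 and 0.0935. Only the SLC40A1 start then stayed under 0.05. For a single region, an exact permutation test of 2 against 2 libraries cannot give a p below 0.33. The differences below are therefore descriptions of 4 libraries, and a p above the threshold does not show that a region was the same under both treatments.

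**Figure D1:**
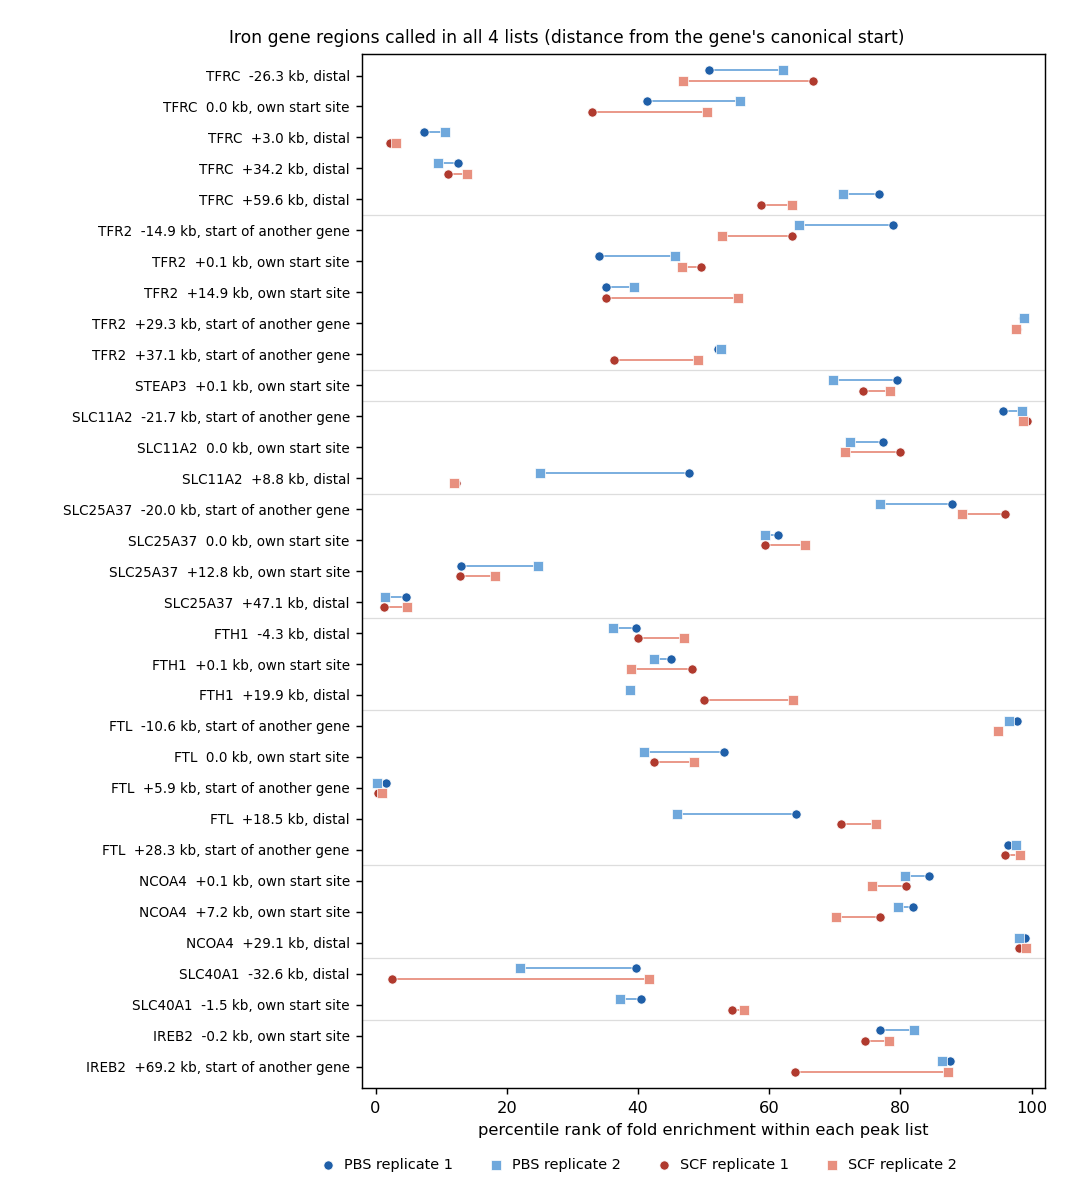
Percentile rank of fold enrichment (horizontal axis, 100 is the highest) of the 33 iron gene regions called in all 4 lists, by gene and by distance in kb from the start of the gene's canonical transcript. Blue marks are the 2 PBS libraries and red marks the 2 SCF libraries, joined by a line within a treatment; the SLC40A1 start (38.8 with PBS, 55.3 with SCF) and the SLC11A2 site at 8.76 kb (36.4 and 12.1) are separated, while most regions overlap.

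The transferrin receptor gene TFRC (chromosome 3, minus strand) had 7 regions, 5 of them in all 4 lists. At its canonical start (chr3:195808349-195809382) the ranks were 41.4 and 55.5 with PBS and 33.0 and 50.5 with SCF, means of 48.4 ± 10.01 and 41.8 ± 12.3 (SD, n = 2). The treatments overlapped, and the difference of -6.68 points (SE 8.92) was smaller than the spread within either. The site in the first intron, 3.03 kb into the gene, ranked near the bottom of every list, at 7.43 and 10.6 with PBS and 2.23 and 3.18 with SCF. The pileup there, the number of fragments over the summit divided by the genome-wide background, was 44.9 and 45.3 with PBS and 35.0 and 35.0 with SCF, so by height it was lower with SCF in both libraries without overlap (limma on fold rank, -6.29 points, SE 3.88, adjusted p = 0.824).

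Far inside the longest annotated TFRC transcripts, 59.6 kb from the canonical start, an intronic site (chr3:195749065-195750009) was among the 8 regions with the greatest differences. It had ranks of 76.7 and 71.3 with PBS and 58.7 and 63.5 with SCF (-12.8 points, SE 4.53, limma adjusted p = 0.746). It is the TFRC site with an AP-1 word. At the site 26.3 kb upstream, which holds 1 GATA word, the ranks were 50.9 and 62.1 with PBS and 66.7 and 46.9 with SCF, and the treatments overlapped. A start of a short TFRC transcript 26.3 kb into the gene was called in 3 lists, with ranks under 10, and was not found in PBS replicate 2.

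TFR2 (chromosome 7) had 6 regions, of which 2 lie at its own starts and 4 at the starts of its neighbors. At the canonical start (chr7:100237760-100240401) the ranks were 34.0 and 45.6 with PBS and 49.6 and 46.8 with SCF, so both SCF values were above both PBS values, by a mean of 8.38 points (SE 5.69, limma adjusted p = 0.841). Without PBS replicate 1 this difference was 2.56 points, and without PBS replicate 2 it was 14.2. An internal start 14.9 kb downstream ranked 35.2 and 39.4 with PBS and 35.1 and 55.2 with SCF. Among the neighbors, the start of ACTL6B, 14.9 kb upstream, ranked 78.9 and 64.6 with PBS and 63.4 and 52.8 with SCF (-13.6 points, SE 7.43, limma adjusted p = 0.802), a difference that was -6.46 without PBS replicate 1, -8.27 without SCF replicate 2 and -20.8 without PBS replicate 2. The start of PCOLCE, on the far side of TFR2, ranked 52.1 and 52.6 with PBS and 36.3 and 49.2 with SCF (-9.63 points, SE 5.95), or -3.18 points without SCF replicate 1 and -16.1 without SCF replicate 2. The start of MOSPD3 stayed between 97.7 and 98.9 in all 4 lists.

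STEAP3, the endosomal ferrireductase (chromosome 2), had a single region called throughout, at its start (chr2:119980931-119982070). Its ranks were 79.6 and 69.8 with PBS and 74.4 and 78.4 with SCF, and the treatments overlapped. An intronic STEAP3 site 10.9 kb into the gene was called only in SCF replicate 2, at a rank of 27.3 and with a pileup of 9 fragments. SLC11A2, the divalent metal transporter (chromosome 12, minus strand), had its start (chr12:51419526-51420520) at 77.3 and 72.3 with PBS and 79.9 and 71.6 with SCF, again with overlap. The start of LETMD1, 21.7 kb upstream, was near the top of all lists, between 95.7 and 99.3. An intronic SLC11A2 site 24.2 kb into the gene was called only in PBS replicate 2, the deepest library, at a rank of 43.1.

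The only rank loss among the iron genes lay in an intron of SLC11A2, 8.76 kb from the start (chr12:51411171-51411541). A rank loss means that the higher SCF rank was at least 10 points below the lower PBS rank. The ranks were 47.8 and 25.1 with PBS and 12.2 and 11.9 with SCF, means of 36.4 ± 16.1 and 12.1 ± 0.194 (SD, n = 2). The difference was -24.4 points (SE 9.0, limma adjusted p = 0.746), and the spread came mostly from the PBS pair. Without PBS replicate 1 it was -13.0 points. With equal numbers of peaks taken from each list it was -21.8 points and no longer met the definition of a rank loss. Among all distal regions called in 4 lists 4.20% had a rank loss, and 1 of 11 here did; at promoter regions 2.26% did, and 0 of the 22 iron gene regions near a start. The recovered pileups were small, 23 and 24 fragments with PBS and 14 and 14 with SCF. Divided by the background of each library they became 21.99 and 16.0 with PBS and 14.8 and 15.8 with SCF, so PBS replicate 2 then lay within 0.182 of SCF replicate 2. The sequence holds both forms of the GATA word, TGATAA and AGATAA, on the plus strand.

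SLC25A37, the mitochondrial iron importer (chromosome 8), had the most regions, 10, of which 4 were in all lists. Its start had ranks of 61.4 and 59.3 with PBS and 59.4 and 65.4 with SCF, and pileups over background of 147 and 135 with PBS and 146 and 167 with SCF. A second start 12.8 kb into the gene ranked 13.05 and 24.7 with PBS and 12.9 and 18.2 with SCF. A site just past the end of the gene, 47.1 kb from the start, ranked between 1.23 and 4.75 in the 4 lists although its pileup was 30.7 to 44.1 times the background. Over the lists that called each site, the distal site of highest mean rank (3.23) lay in an intron 25.6 kb into the gene. It was called only in PBS replicate 2 and SCF replicate 1, at ranks of 1.40 and 5.06. The site past the end of the gene had a mean of 3.03 over all 4 lists. The start of the neighboring gene ENSG00000289461, 20.04 kb upstream, ranked 87.8 and 76.9 with PBS and 96.0 and 89.3 with SCF, without overlap (10.3 points, SE 5.92, limma adjusted p = 0.809). Without PBS replicate 2 the difference was 4.83 points, and without PBS replicate 1 it was 15.8.

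The heavy chain of ferritin, FTH1 (chromosome 11, minus strand), had 4 regions. At its start (chr11:61734127-61735497) the ranks were 45.0 and 42.4 with PBS and 48.3 and 38.9 with SCF, with means of 43.7 ± 1.80 and 43.6 ± 6.64 (SD, n = 2). The difference was -0.123 points (SE 5.10). By pileup the same start was among the highest of each list, with pileup ranks between 94.2 and 95.5 and pileups of 126 and 121 times the background with PBS and 132 and 128 times with SCF. The distal site 4.28 kb upstream (chr11:61739090-61739618) also had pileup ranks, between 86.6 and 91.8, far above its fold ranks. Those were 39.7 and 36.2 with PBS and 40.1 and 47.0 with SCF, so both SCF values lay above both PBS values, by a mean of 5.62 points (2.14 without SCF replicate 2).

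The site downstream of FTH1, 19.9 kb from the start (chr11:61715026-61715599) and 2314 bp from the nearest start of BEST1, showed a rank gain, the mirror image of a rank loss. Its ranks were 38.7 and 38.7 with PBS and 50.1 and 63.7 with SCF, means of 38.7 ± 0.00321 and 56.9 ± 9.61 (SD, n = 2). The difference was 18.2 points (SE 6.15, limma adjusted p = 0.746), or 11.4 without SCF replicate 2 and 24.99 without SCF replicate 1. A rank gain was found in 4.60% of all distal regions called in 4 lists, and in 1 of 11 here. The pileups were 16 and 20 fragments with PBS and 17 and 22 with SCF, so the raw heights overlapped. Over the background of each library they were 15.3 and 13.3 with PBS and 18.0 and 24.9 with SCF, and did not. On that scale the medians over all distal regions called in 4 lists did not overlap either. They were 19.1 and 18.0 with PBS and 20.1 and 22.6 with SCF. The pileup ranks of the FTH1 site overlapped, at 36.2 and 39.8 with PBS and 38.0 and 52.8 with SCF. The summits of the 4 libraries were spread over 270 bp.

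FTL, the light chain (chromosome 19), had 8 regions in a gene-dense stretch, of which 1 lies at its own start and 4 at the starts of BAX, GYS1 and RUVBL2. At the FTL start (chr19:49468180-49469535) the ranks were 53.1 and 40.9 with PBS and 42.5 and 48.6 with SCF, with overlap, and the difference was -1.50 points (SE 6.16). As for FTH1, the pileup ranks were far higher, between 93.9 and 96.9. The distal site 18.5 kb downstream (chr19:49486728-49487222) had the greatest rise among the distal sites, with ranks of 64.1 and 46.0 with PBS and 70.9 and 76.3 with SCF (18.6 points, SE 7.76, limma adjusted p = 0.753). The 2 treatments did not overlap, but the gap between them was under 10 points, and without PBS replicate 2 the difference was 9.52. It holds a GATA word. The starts of BAX and RUVBL2 ranked between 94.9 and 98.3 in all 4 lists, and a region at GYS1, 5.92 kb from the FTL start, between 0.238 and 1.62.

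NCOA4, the ferritin receptor of autophagy (chromosome 10), had 3 of its 5 regions in all 4 lists. At its first start (chr10:51564886-51565713) the ranks were 84.4 and 80.6 with PBS and 80.9 and 75.6 with SCF. At the start 7.22 kb downstream, whose sequence has an antioxidant response word and an EGR word, they were 82.0 and 79.7 with PBS and 76.9 and 70.2 with SCF, so both SCF values were lower (-7.28 points, SE 4.48, limma adjusted p = 0.824), or -3.97 points without SCF replicate 2. The site 29.1 kb from the start, past the end of the gene (chr10:51593959-51594864), had the highest mean rank over the 4 lists of the 33 regions, at 99.0 and 98.1 with PBS and 98.1 and 99.1 with SCF.

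SLC40A1, the iron exporter (chromosome 2, minus strand), carried the only rank gain at a start. The merged region (chr2:190445151-190447334) ranked 40.5 and 37.2 with PBS and 54.3 and 56.2 with SCF, means of 38.8 ± 2.33 and 55.3 ± 1.31 (SD, n = 2). The difference was 16.4 points (SE 3.94, limma adjusted p = 0.746), and this region had the lowest unadjusted limma p of the 33. A rank gain was seen in 1.19% of all promoter regions called in 4 lists, and in 1 of the 22 iron gene regions near a start. Leaving out each library in turn and merging the other lists again, the difference ranged from 14.8 to 22.2 points.

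The SLC40A1 region holds 2 summits, and the libraries differed in which one ranked higher. The upstream summit lies between 1147 and 1479 bp before the canonical start, close to the start of a shorter transcript. Over background its pileup was 43.0 and 28.0 with PBS and 55.1 and 61.0 with SCF, so both SCF libraries were higher. On that scale the medians over all promoter regions called in 4 lists were also higher with SCF. They were 52.6 and 49.3 with PBS and 54.0 and 55.4 with SCF. The raw pileups of the upstream summit were 45 and 42 fragments with PBS and 52 and 54 with SCF. The summit at the canonical start had pileups over background of 35.4 and 33.3 with PBS and 41.8 in SCF replicate 2. In SCF replicate 1 a single peak covered both summits and gave no separate value. The raw pileups at the canonical start were 37 and 50 fragments with PBS and 37 in SCF replicate 2. Its ranks were 26.4 and 37.2 with PBS and 29.3 in SCF replicate 2, so the rank gain was not seen there. In PBS replicate 2 this summit, and not the upstream one, gave the rank of the merged region. Compared at the upstream summit alone, an alternative chosen after the data were seen, the ranks were 40.5 and 27.6 with PBS and 54.3 and 56.2 with SCF, a difference of 21.2 points. The sequence at the upstream summit holds none of the 7 words. The distal SLC40A1 site, 32.6 kb upstream, ranked 39.8 and 21.98 with PBS and 2.57 and 41.6 with SCF, so the SCF libraries lay on both sides of the PBS libraries.

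**Figure D2:**
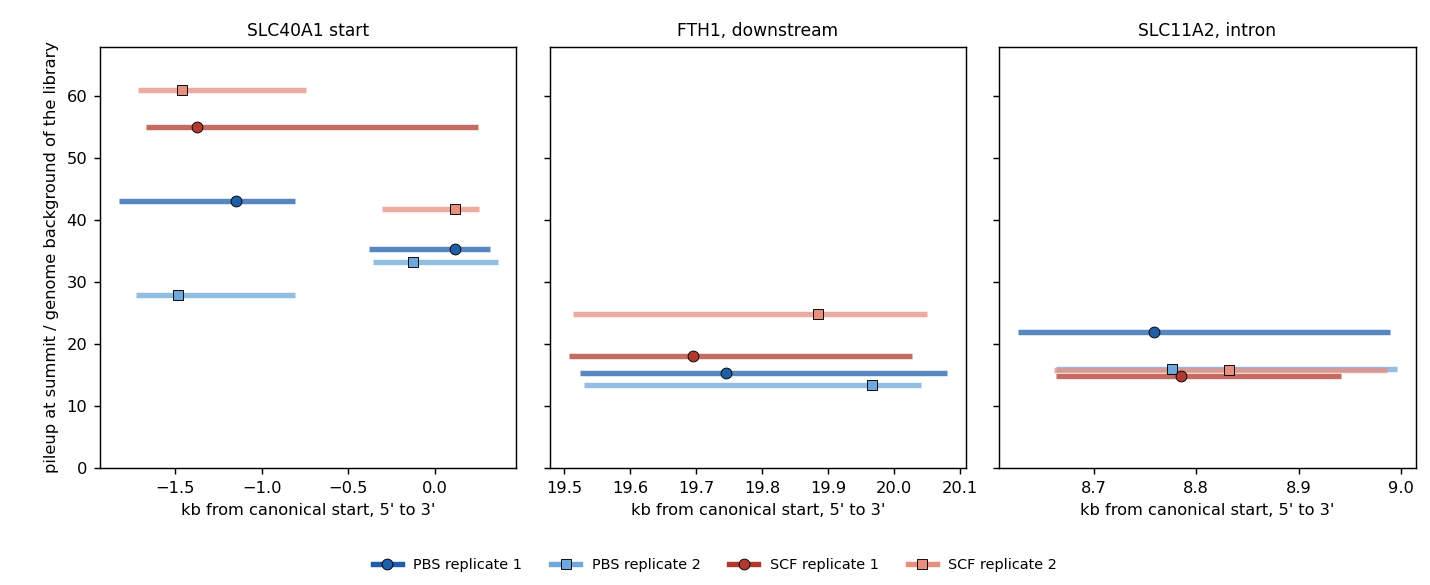
Peaks at the 3 regions with a rank gain or loss: bars span each deposited peak and marks its summit, in kb from the canonical start (horizontal axis), at the height of the summit pileup divided by the genome-wide background of the library (vertical axis). At the upstream SLC40A1 summit the SCF libraries (55.1 and 61.0) stand above the PBS libraries (43.0 and 28.0), whereas at the SLC11A2 intron PBS replicate 2 (16.0) is level with SCF replicate 2 (15.8). On this scale the medians over all regions called in 4 lists were 33.5 and 31.3 with PBS and 35.0 and 37.3 with SCF.

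IREB2 (chromosome 15), which encodes the iron-sensing regulator IRP2, had its start (chr15:78729853-78731358) at 77.0 and 82.1 with PBS and 74.6 and 78.3 with SCF, with overlap. The start of HYKK, 69.2 kb from the IREB2 start, ranked 87.5 and 86.3 with PBS and 63.9 and 87.2 with SCF, so only SCF replicate 1 was low. A distal site 15.4 kb upstream was called in PBS replicate 2 and SCF replicate 1.

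Across the 10 genes, the order of the regions at the canonical starts by mean rank over the 4 lists was NCOA4 (80.4), IREB2 (78.0), STEAP3 (75.5), SLC11A2 (75.3), SLC25A37 (61.4), SLC40A1 (47.0), FTL (46.3), TFRC (45.1), TFR2 (44) and FTH1 (43.7). The first 4 overlapped each other in single lists, as did the last 5, and SLC25A37 lay between them. The SLC40A1 value is that of the strongest peak of its region, with its summit upstream in 3 of the 4 lists. The summit at its canonical start ranked 26.4 and 37.2 with PBS and 29.3 in SCF replicate 2, below the means of the other 9 starts. The median over all promoter regions called in 4 lists was 73.0, so SLC25A37, SLC40A1, FTL, TFRC, TFR2 and FTH1 were below it. Fold enrichment is a ratio to the local background, the pileup expected from the surrounding chromatin. That background was 19.1 times the genome-wide value at the FTH1 start, 18.8 times at FTL, 17.0 times at SLC25A37, 13.8 times at the upstream FTH1 site, 10.5 times at the intronic TFRC site and 9.85 times at the TFRC start. The median over all promoter regions was 4.36 and the 90th percentile 10.4, and over all distal regions, the class of the upstream FTH1 and intronic TFRC sites, 1.81 and 4.88. Of the 33 regions, 10 had a local background over 8 times the genome-wide value, against 12.5% of all regions called in 4 lists, and these lay at FTH1, FTL, SLC25A37 and TFRC and, among the starts of other genes, at MOSPD3 and RUVBL2.

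**Figure D3:**
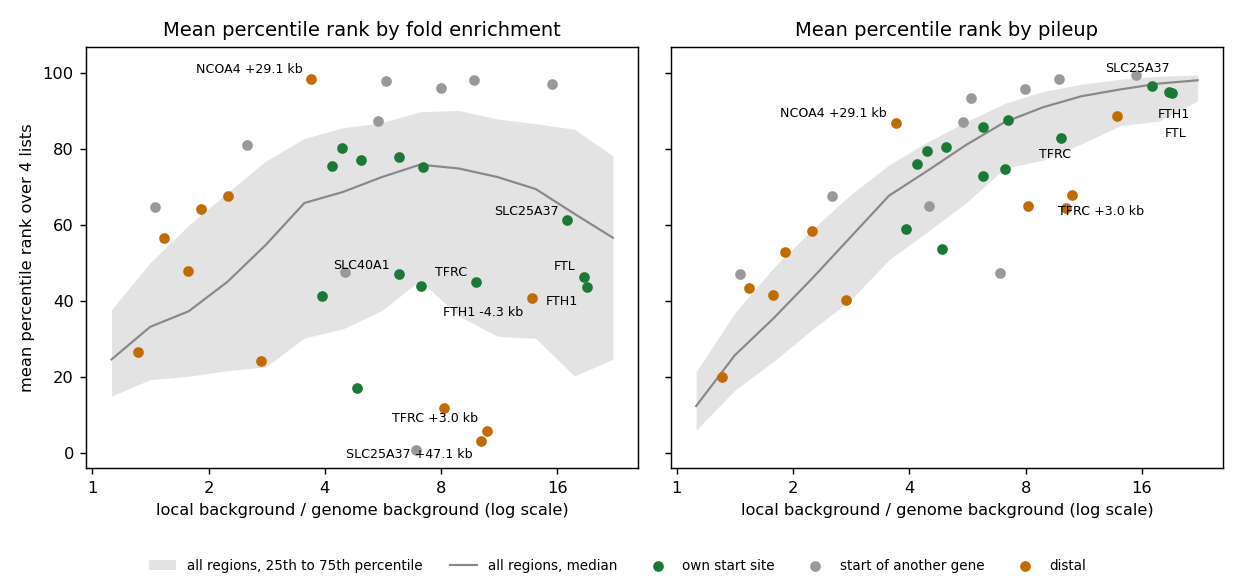
Mean percentile rank over the 4 lists (vertical axes) by fold enrichment (left) and by recovered pileup (right) against the local background as a multiple of the genome-wide background (horizontal axes, log scale). Points are the 33 iron gene regions and the band and line the quartiles and median of all regions; FTH1, FTL and SLC25A37 starts, at backgrounds of 17.0 to 19.1, are in the middle by fold enrichment and near the top by pileup.

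With peaks ranked by pileup in place of fold enrichment, the SLC40A1 start and the downstream FTH1 site rose by 8.09 and 7.41 points and no iron gene region had a rank gain, while the SLC11A2 intron met the definition of a rank loss (-15.5 points). The starts of FTH1, FTL and SLC25A37 differed by -0.343, -0.616 and 0.190 points on that scale. Both SCF libraries were shallower than both PBS libraries, and the part of depth in the values of weak sites was not tested.

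**Figure D4:**
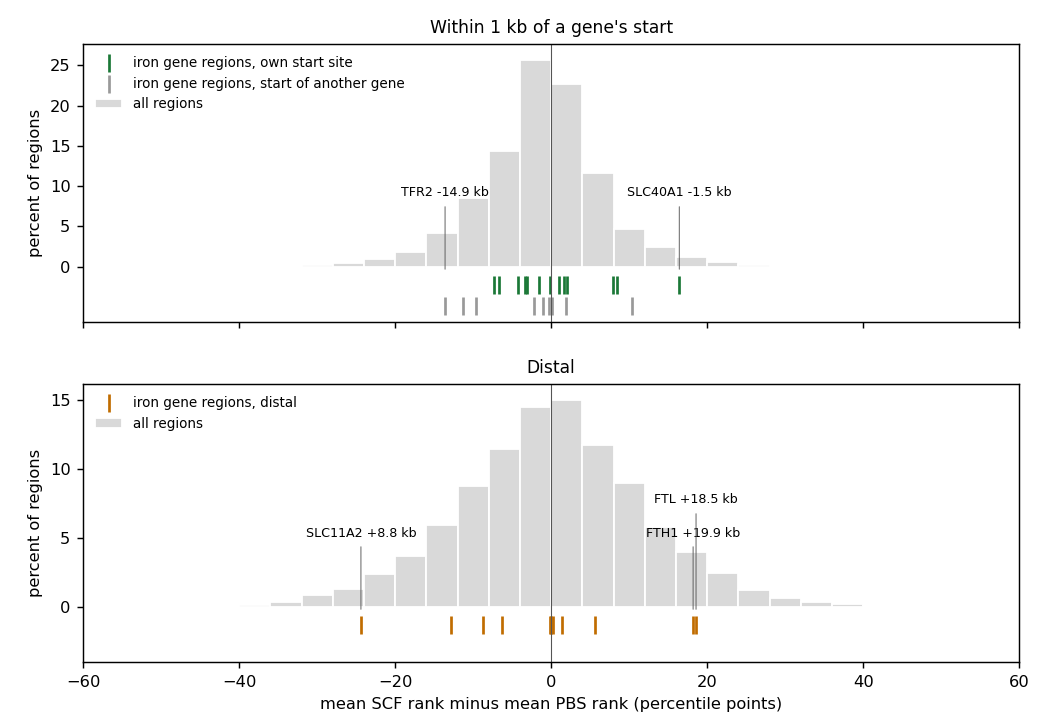
Difference between mean SCF rank and mean PBS rank in percentile points (horizontal axis) for all regions called in 4 lists (bars, percent of regions) and for the iron gene regions (ticks), near starts (top) and distal (bottom). The iron gene ticks lie within the spread of all regions, from -24.4 (SLC11A2 intron) to 18.6 (downstream FTL site).

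Among the words searched within 100 bp of the summit, GATA words occurred in 6 of the 30 iron gene regions near any start (20%), against 9.60% of all such regions, and in 5 of the 23 distal ones (21.7%), against 36.5%. The distal ones include the SLC11A2 intron, the upstream TFRC site and the downstream FTL site printed above. Antioxidant response words, bound by NFE2L2 and BACH1 in ferritin enhancers, occurred in 7 of 30 regions near a start (23.3%, against 10.1%) and in 0 of 23 distal regions (against 9.77%). Of those 7, the starts of NCOA4 and SLC11A2 belong to listed genes and the other 5 to neighbors. AP-1 words were present in 1 of 30 and 1 of 23 regions, against 4.03% and 11.5%, and EGR words in 1 of 30 and 0 of 23, against 6.33% and 2.03%. A match is a run of letters and was not tested for binding.

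A further list of 36 iron-handling genes was examined at their starts. Of these, 31 had at least 1 region and 28 had one in all 4 lists, and the median rank difference over the 34 regions in all lists was -1.31 points. Both SCF ranks lay above both PBS ranks in 4 of the 34 regions and below them in 6, where 16.0% and 19.3% of all regions did. ERFE, which encodes the hormone erythroferrone that erythroblasts secrete to lower hepcidin, was the only one with a rank gain (5.77 and 4.78 with PBS, 21.6 and 38.6 with SCF), and none had a rank loss (1.19% and 2.26% of all promoter regions). The ERFE pileups were 16 and 22 fragments with PBS and 25 and 22 with SCF, so PBS replicate 2 equaled SCF replicate 2 in raw height. CP, which encodes the ferroxidase ceruloplasmin, also ranked higher with SCF without overlap (56.0 and 47.5 with PBS, 64.8 and 84.8 with SCF), with a gap under 10 points. A region at ISCU, the scaffold for iron-sulfur clusters, was called in both PBS lists only, at ranks of 1.19 and 1.22 (2.37% of all regions had such calls), beside a stronger ISCU start present in all 4 lists. The highest starts were those of SLC39A8 (96.5 to 99.2), SLC25A28 (90.3 to 96.2), FBXL5 (89.8 to 95.4) and ACO1 (83.7 to 93.5). A second start region ranked 42.9 to 51.4 at SLC39A8 and 59.7 to 76.2 at FBXL5. Among the lowest were a second BACH1 region (8.81 to 18.9), ERFE, the weaker HMOX2 region (19.97 to 45.4) and HFE (47.7 and 43.96 with PBS, 35.5 and 14.0 with SCF, without overlap). The stronger HMOX2 region ranked 49.7 to 63.1. STEAP2, STEAP4, TF, TMPRSS6 and FTMT had no start region in any list.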

How the data were processed

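ATAC-seq peak lists of 4 sgControl libraries were used. According to the methods, the authors ran the ENCODE pipeline on paired-end reads; the processing notes name bcl2fastq, Bowtie2 and SAMtools, and the peak caller is not given in the sources used here. The methods and notes name hg38, but the series description and each list name hg19, so coordinates were read as hg19; 0 of 24 chromosomes were exceeded in GRCh37. Per the authors' deposited lists, the values are a whole-number score, the fold enrichment (a ratio to local background), and the −log10 of p and q, called per library. Peak names carry replicate numbers that differ from the labels, which were followed. Pileup and local background were recovered from fold enrichment and −log10 p. The relative error was under 0.0001 in 100% of peaks with a −log10 p under 300, and peaks above that were left out of this share. Pileups are written as fragments, but the unit that the caller counted is not stated. Read totals are unknown. Lists were merged at 1 bp of overlap. Ranks were compared with limma 3.58.1 (R 4.3.3), tested on simulated data. Starts came from GENCODE release 44 lifted to GRCh37. Libraries with the same label number did not deviate together (r = 0.0236 across 22355 regions, which are not independent). Pairing by the numbers in the peak names was not examined. Members and gene lists were chosen with earlier results of these data known. All 10 start regions, gains, losses, the highest distal site of each gene and the 8 greatest differences without overlap were named. A further cell type marker and a further site sequence are not reported here.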

Additional observations from a re-analysis of the deposited data

How the results depend on the processing

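Depth limits weak sites: the lowest called pileup was 5 to 7 fragments, and an uncalled site is only one that did not pass at that depth. The count of 0 regions with a limma adjusted p under 0.05 held under all alternatives run for it, including the replicate block (smallest adjusted p 0.745 over all regions) and log2 fold enrichment. Ranked by pileup, rank gains were 0 in place of 2. With equal numbers of peaks per list, rank losses were 0 in place of 1. A gap of 20 points gave 0 gains and 0 losses, and a gap of 5 points gave 2 losses. A window of 15 kb gave 1 gain, since the downstream FTH1 site then falls outside. At a −log10 q of at least 5, 1 region was called with PBS only, and with summits matched within 250 bp 1 site was called with SCF only. Leaving out 1 library at a time, regions with PBS calls only ranged from 0 to 4, those with SCF calls only from 1 to 6, gains from 2 to 4 and losses from 1 to 5, since a single library then stands for a treatment. With 1 library left out, the median difference at the genes' own starts ranged from -1.60 to 2.56 (2.56 without PBS replicate 1). That at distal sites ranged from -0.45 to 1.67. The distal median was -3.19 with a window of 15 kb and -0.949 when ranked by pileup, in place of 0.0355. The 3 gains and losses kept their direction in each alternative run for them. Of single regions, the NCOA4 start difference was -0.98 by pileup in place of -4.25, and the SLC40A1 difference 19.04 with equal numbers of peaks in place of 16.4; those of the downstream FTH1 site stand beside it. The TFRC start difference ranged from -15.4 to 2.05 with 1 library left out.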
